A study of Mus musculus with 4 samples.

Results

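The 10 genes Prss34, Mcpt8, Cpa3, Gzmb, Fcer1a, Ms4a2, Cd200r3, Il1rl1, Hdc and Cyp11a1 mark basophils and mast cells, and were followed through 4 single-cell libraries of mouse bone marrow. They were chosen by name and all 10 were found once each among the 32285 genes of the deposited count matrices. There was 1 library per group, and the groups were a control, Mll3SI, Mll4SI and Mll3/4SI, all from CD45.2+Kit+ marrow cells collected 10 weeks after transplantation. The labels do not spell out SI, and their library names read wt, mll3KI, mll4KI and dKI. They give no strain, donor age, sex, animal number or batch. RNA and surface antibodies were counted in the same cells (CITE-seq). With 1 library per group no difference between groups could be tested. Intervals given below are 95% intervals (Poisson for levels, Clopper-Pearson for shares, exact in both cases) and cover counting error only.

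Basophils and mast cells are the blood and tissue cells that carry the high-affinity receptor for immunoglobulin E and release stored granules when that receptor is cross-linked. In the marrow both lineages branch from progenitors that carry Kit, the receptor for stem cell factor, and the transcription factor Gata2 is required for them. Basophil precursors are known for the proteases Mcpt8 and Prss34, whereas Cpa3 is also found in mast cell precursors and in early progenitors, so that the 10 genes together report on a lineage and its roots more than on a single cell type.

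Promoters of the 5 genes on which most results turn are shown, because these genes are often found in the same cells and can be set side by side at their starts. Each line holds the 250 bases before the transcription start from the RefSeq promoter table of build GRCm38.p6, written 5′ to 3′ along the gene. Capitals mark matches to short motifs searched on both strands. The motifs were AGATAA for GATA factors, TGTGGT for RUNX, TTGCNNAA for C/EBP with the palindrome TTGCGCAA as a stricter form of it, TTCNNNGAA for STAT, and CAGCTG as an E-box. A promoter with the stricter form counts under both. The stretches lie at chr3:20242182-20242431 (Cpa3, minus strand), chr1:173227230-173227479 (Fcer1a, minus strand), chr19:11623720-11623969 (Ms4a2, minus strand), chr14:56085198-56085447 (Mcpt8, minus strand) and chr17:25298144-25298393 (Prss34, plus strand).
Cpa3: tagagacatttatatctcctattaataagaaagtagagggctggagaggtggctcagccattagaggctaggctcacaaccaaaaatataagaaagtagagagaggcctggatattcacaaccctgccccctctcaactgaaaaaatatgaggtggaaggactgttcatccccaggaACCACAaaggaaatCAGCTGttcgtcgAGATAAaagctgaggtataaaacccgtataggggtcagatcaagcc
Fcer1a: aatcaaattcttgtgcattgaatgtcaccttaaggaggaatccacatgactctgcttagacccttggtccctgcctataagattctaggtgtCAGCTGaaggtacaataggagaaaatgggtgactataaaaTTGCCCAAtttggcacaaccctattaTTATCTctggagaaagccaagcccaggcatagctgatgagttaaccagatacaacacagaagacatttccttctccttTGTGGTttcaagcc
Ms4a2: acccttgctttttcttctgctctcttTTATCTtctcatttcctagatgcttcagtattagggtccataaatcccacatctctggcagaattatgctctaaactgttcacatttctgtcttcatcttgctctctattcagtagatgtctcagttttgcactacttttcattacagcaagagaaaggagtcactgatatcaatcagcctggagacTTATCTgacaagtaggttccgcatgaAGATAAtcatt
Mcpt8: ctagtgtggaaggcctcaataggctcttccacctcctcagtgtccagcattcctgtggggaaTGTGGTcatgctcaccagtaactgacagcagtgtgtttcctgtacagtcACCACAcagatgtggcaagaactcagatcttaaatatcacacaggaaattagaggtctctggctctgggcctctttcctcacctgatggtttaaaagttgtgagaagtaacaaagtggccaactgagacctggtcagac
Prss34: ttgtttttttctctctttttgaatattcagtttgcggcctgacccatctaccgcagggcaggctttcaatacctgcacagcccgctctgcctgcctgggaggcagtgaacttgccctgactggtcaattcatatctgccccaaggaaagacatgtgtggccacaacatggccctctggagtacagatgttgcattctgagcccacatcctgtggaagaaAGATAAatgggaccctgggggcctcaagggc

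The table held 12 promoters of the 10 genes, since Il1rl1 and Cyp11a1 have 2 each. AGATAA or its reverse was found in 7 of the 12 (58.3%), against 9.99% of all 32851 promoters of the same length. The genes with it were Prss34, Cpa3, Fcer1a, Ms4a2, Cd200r3 and Il1rl1. In Ms4a2 it occurred 3 times, at 224, 37 and 11 bases before the start, in Cpa3 once at 46, in Prss34 once at 31 and in Fcer1a once at 92. TGTGGT was found in 5 of 12 member promoters and in 14.0% of all promoters. It lay at 73 bases in Cpa3, at 14 in Fcer1a, and at 188 and 139 in Mcpt8, which held no GATA match in this window. TTGCNNAA was in 4 promoters (9.56% of all) and CAGCTG in 3 (13.001% of all). TTGCGCAA and TTCNNNGAA were in none, against 0.164% and 7.02% of all promoters, and the Hdc promoter held no match to any of the motifs. A match describes the letters of the window and nothing about binding. Sequence near the start matched the beginning of an annotated transcript for all but a Cyp11a1 promoter and the Gzmb promoter. Such a match need not be exact in position: the Fcer1a window lies from 173227230, beyond the annotated gene end at 173227214.

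All 10 are protein-coding genes of GRCm38 (GENCODE M21). The granule proteases Prss34 (chr17:25298394-25300165), Mcpt8 (chr14:56082166-56085273) and Gzmb (chr14:56258838-56262260) lie beside related protease genes, so that reads in shared sequence may be counted for a neighbour, and Cpa3, a mast cell carboxypeptidase, lies at chr3:20215620-20242181. Fcer1a (chr1:173221284-173227214) and Ms4a2 (chr19:11615523-11623719) code for the alpha and beta chains of the immunoglobulin E receptor. Il1rl1 (chr1:40429570-40465415) codes for the receptor of interleukin 33 and Cd200r3 (chr16:44943678-44981380) for an activating receptor of basophils and mast cells. Hdc (chr2:126593667-126619299) makes histamine, and Cyp11a1 (chr9:58006411-58027023) catalyses the first step of steroid synthesis. Annotated transcripts of Mir6949, Mir7007 and Gm17322 overlap Mcpt8, Cpa3 and Cyp11a1.

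After filtering, 6743 control, 8023 Mll3SI, 10186 Mll4SI and 6755 Mll3/4SI cells were kept, with median counts of 17003, 13619, 12800 and 19172 unique molecular identifiers (UMIs) per cell. Deposited totals ran from 140546094 to 177753607 gene UMIs per library, and pairs of libraries shared 16 to 29 cell barcodes. The genes named by the labels were found in every library: Kmt2c (MLL3) at 110 to 148 and Kmt2d (MLL4) at 33.3 to 41.5 CPM (a gene's UMIs scaled to a common library total), which does not check the genotypes because the alleles are not described and a 3′ tag need not cover them. Xist stood at 0.0315 and 0.194 CPM in the control and Mll3SI and at 1149 and 1358 CPM in Mll4SI and Mll3/4SI, while the Y-linked Ddx3y stood at 41.2 and 41.7 against 0.961 and 0.895 CPM. Sex-linked transcripts thus separated the first pair of libraries from the second, and sex and genotype cannot be told apart in either comparison across that line. Each library held 2 hashtag antibodies whose meaning the labels do not give, and values within each hashtag are given for the results they touch most.

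Across all kept cells, 3 genes stood out in Mll3/4SI. Fcer1a was at 4.39 CPM in the control (95% interval 4.04 to 4.77), with Mll3SI at 2.90, Mll4SI at 8.92 and Mll3/4SI at 79.9 (78.4 to 81.4). Cpa3 was at 65.3 CPM in the control, with Mll3SI at 26.5, Mll4SI at 84.1 and Mll3/4SI at 292. Ms4a2 was at 18.75, 12.7, 15.8 and 55.5 CPM in the same order. Mll3/4SI was the highest library for each of the 3 genes, by 18.2-fold over the control for Fcer1a (interval 16.7 to 19.8), 4.47-fold for Cpa3 (4.36 to 4.58) and 2.96-fold for Ms4a2 (2.83 to 3.10).

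The other granule proteases did not share that order. Mcpt8, the basophil marker protease, was at 35.1 CPM in the control, with Mll3SI at 58.3, Mll4SI at 14.8 and Mll3/4SI at 48.6, so that it was lowest in Mll4SI, at 0.422 of the control (0.400 to 0.444), and highest in Mll3SI, at 1.66 times the control (1.60 to 1.73). Prss34 was at 14.0, 13.1, 7.52 and 8.52 CPM. Gzmb, a cytotoxic granule protease, was at 3.79, 1.57, 2.35 and 3.70 CPM. Cpa3 and Mcpt8 thus lay on opposite sides of the control in Mll3SI and in Mll4SI: Cpa3 was at 0.406 of the control in Mll3SI (0.389 to 0.422), where Mcpt8 was above it, and was above the control in Mll4SI, where Mcpt8 was below.

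The hashtags differed for these proteases. In Hashtag1 cells Mcpt8 was at 24.3 CPM in the control and 20.95 in Mll4SI, and in Hashtag2 cells at 44.2 and 10.1 CPM, so that the difference was larger in Hashtag2 cells. Prss34 in Mll4SI was above the control in Hashtag1 cells, at 12.3 against 7.67 CPM, and below it in Hashtag2 cells, at 3.43 against 18.7 CPM, so that the direction of its pooled difference did not hold within both. In Mll3/4SI Prss34 was below the control in both hashtags, at 1.58 and 8.15 CPM, while Mcpt8 was below it in Hashtag1 cells (21.04 CPM) and above it in Hashtag2 cells (68.7 CPM). In Mll3SI and Mll4SI Cpa3 and Mcpt8 lay on opposite sides of the control within each hashtag, Cpa3 being at 68.3 and 62.7 CPM in the control, 30.6 and 23.9 in Mll3SI, and 90.7 and 85.2 in Mll4SI.

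Among the receptors and enzymes, Il1rl1 was at 6.87 CPM in the control, with Mll3SI at 4.19, Mll4SI at 4.91 and Mll3/4SI at 10.3. Hdc was at 71.6, 66.2, 47.7 and 94.8 CPM. Cyp11a1 was highest in the control, at 2.51 CPM, with Mll3SI at 0.631, Mll4SI at 0.273 and Mll3/4SI at 0.965. Its level was 0.251 of the control in Mll3SI (0.194 to 0.323) and 0.109 in Mll4SI (0.0761 to 0.151). Cd200r3 was near 1 CPM throughout, at 0.685, 0.372, 1.08 and 0.923 CPM.

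A gene was called 2-fold different where the log2 ratio of CPM + 1 was at least 1 either way, with a mean of at least 1 CPM in the pair of libraries. That left 9 of the 10 genes, Cd200r3 being under the minimum in each pair. In Mll3SI 2 genes were 2-fold lower (Cpa3 and Cyp11a1) and none higher, where 0.597% of all genes passed 2-fold either way. The median log2 ratio was -0.53 over the 9 genes and -0.02 over all genes. In Mll4SI 2 were lower (Mcpt8 and Cyp11a1) and none higher, beside 2.42% of all genes, and the medians were -0.51 and -0.13. Under median-of-ratios scaling the median of all genes in Mll4SI was 0.01 and Fcer1a became 2-fold higher there. In Mll3/4SI 3 were higher (Fcer1a, Cpa3 and Ms4a2) and none lower, beside 2.62% of all genes, and the medians were 0.46 and -0.05. The 3 comparisons share the control library. In Hashtag1 cells alone Cyp11a1 in Mll3SI, Mcpt8 in Mll4SI and Ms4a2 in Mll3/4SI no longer passed 2-fold, and with 10 CPM added in place of 1 both Cyp11a1 calls and Mcpt8 in Mll4SI did not.

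**Figure D1:**
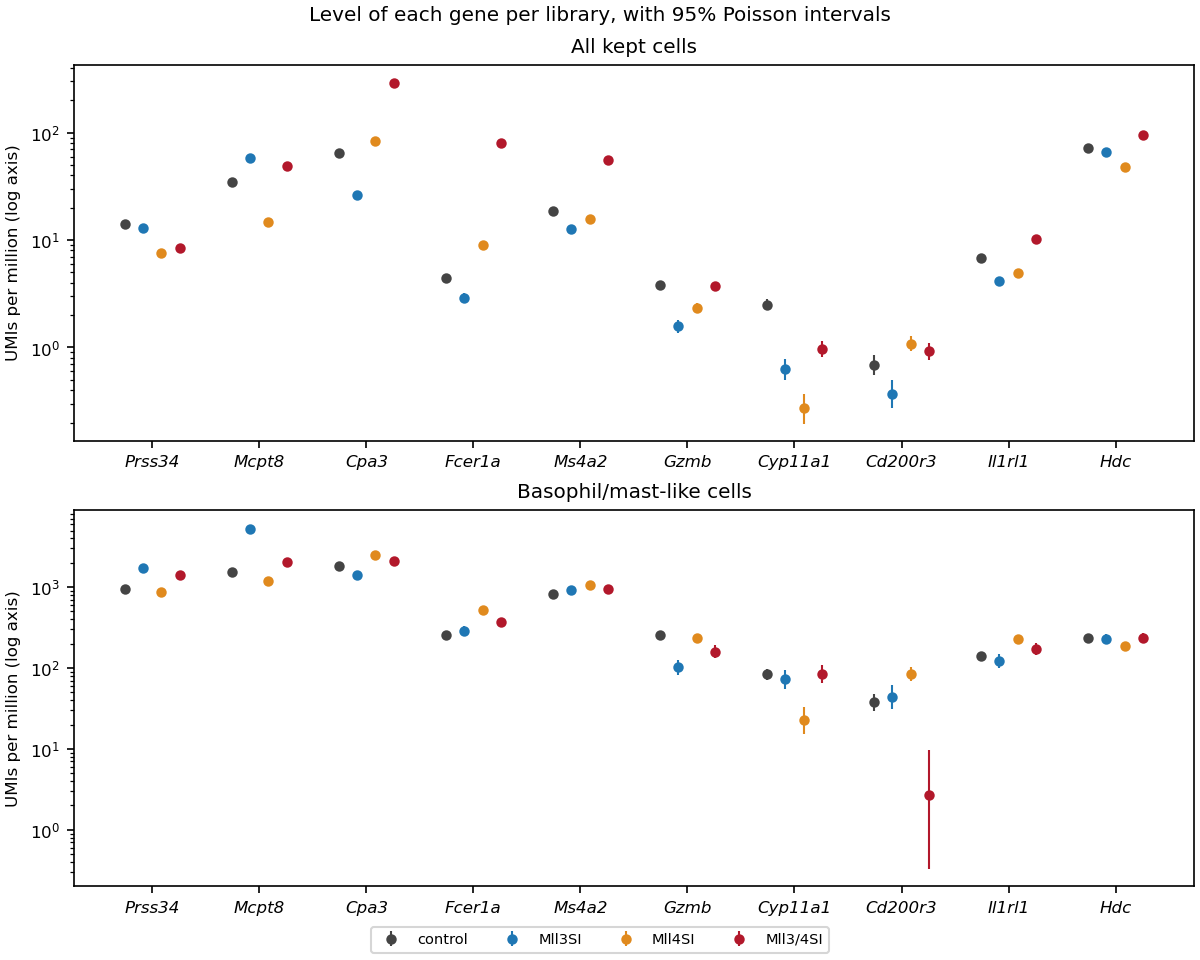
Level of each of the 10 genes (x axis) in CPM (y axis, log scale) in the 4 libraries, over all kept cells (top) and over basophil/mast-like cells (bottom). Points are sums over a library and bars are 95% Poisson intervals, often smaller than the point. Mll3/4SI stands above the other libraries for Cpa3, Fcer1a and Ms4a2 in the top panel only.

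Shares of cells with a UMI were taken after thinning each cell to 3000 UMIs, which left out 118 to 226 shallower cells per library. Cpa3 was detected in 6.31% of control cells, with Mll3SI at 3.10%, Mll4SI at 5.61% and Mll3/4SI at 17.02%, or 11.7%, 6.18%, 9.86% and 25.8% without thinning. Fcer1a was detected in 1.03%, 0.683%, 1.18% and 7.60% (1.71%, 1.31%, 2.40% and 12.1% unthinned). Ms4a2 was detected in 3.02%, 2.02%, 1.998% and 5.76% (6.67%, 4.90%, 4.32% and 12.04% unthinned). For each of these genes Mll3/4SI held the highest share, in the same direction as the CPM. Mcpt8 was detected in 3.27%, 3.02%, 1.14% and 2.39% of cells (13.02%, 9.88%, 4.38% and 8.72% unthinned), so that Mll3SI did not exceed the control by cells although it did by UMIs. Prss34 was detected in 0.439%, 0.342%, 0.231% and 0.257% of cells. As a background, B-lymphoid-like cells, which should lack these genes, held Cpa3 in 1 of 65 control cells (1.54%) and in none of the 175 (Mll3SI), 37 (Mll4SI) and 36 (Mll3/4SI) others, which allows up to 1.71%, 8.11% and 8.33% (3 cells of the total, the limit used for every count of 0). Fcer1a and Ms4a2 were detected in none of the thinned B-lymphoid-like cells, which allows up to 4.62%, 1.71%, 8.11% and 8.33% in the 4 libraries. Their median depths were 16014, 12790, 16440 and 16422 UMIs, beside 17003, 13619, 12800 and 19172 UMIs over all cells. Except for Ms4a2 in Mll3SI, these limits are above the shares of Fcer1a and Ms4a2 over all cells, so that free RNA was bounded only loosely this way.

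To see which cells held the UMIs, the 4 libraries were clustered together on variable genes that excluded the 10 genes, all marker genes and the listed pathway genes. Cluster 14, with 338 cells, had all 12 of 12 basophil/mast markers (none of them among the 10 genes) past 2-fold over other cells and is called basophil/mast-like. Gata2, the lineage's transcription factor, stood there at 645 CPM in the control, with Mll3SI at 630, Mll4SI at 656 and Mll3/4SI at 566. Of 12 mature mast cell markers, 2 passed 2-fold (Cma1 and Mcpt2) and Tpsab1, Mcpt1, Tph1 and Mrgprb1 were at 0. Among other lists, Meis1, Mllt3 and Angpt1 of the stem cell list, Gata1 and Blvrb of the erythroid list, Itga2b and Siglecf passed 2-fold, and no granulocyte, monocyte, B-lymphoid, T/NK or dendritic marker did. The summed granulocyte markers stood at 6704 CPM in the control, with Mll3SI at 5720, Mll4SI at 18663 and Mll3/4SI at 4661. Their part in the Mll4SI values of this class was not tested.

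Basophil/mast-like cells were 130 of 6743 control cells (1.93%, interval 1.61 to 2.29), 76 of 8023 Mll3SI cells (0.947%), 94 of 10186 Mll4SI cells (0.923%) and 38 of 6755 Mll3/4SI cells (0.563%). Against the control the shares were 0.491-fold in Mll3SI (0.367 to 0.654), 0.479-fold in Mll4SI (0.365 to 0.626) and 0.292-fold in Mll3/4SI (0.199 to 0.419). The class was thus a smaller share of cells in all 3 libraries than in the control, including the library where Fcer1a, Cpa3 and Ms4a2 were highest over all cells. In the same order, HSC/MPP-like cells (named by stem and multipotent progenitor markers) were at 0.822-fold, 0.541-fold and 0.408-fold without cluster 34. The same markers named cluster 34 HSC/MPP-like, but it was set apart after clustering for its Cpa3, as described below. It alone was 10.1% of Mll3/4SI cells, beside 9.43% HSC/MPP-like cells in the control, so the 0.408-fold holds only without it. Erythroid-like cells were at 0.719-fold, 0.297-fold and 0.304-fold, and granulocyte-like cells at 1.02-fold, 1.30-fold and 0.874-fold. The last group left out cluster 38, also named granulocyte-like and 4.86% of Mll3/4SI cells. Lower shares were thus not particular to this class in Mll4SI, where HSC/MPP-like and erythroid-like cells were lower too. In Mll3/4SI erythroid-like cells were also lower, while the direction for HSC/MPP-like cells depended on cluster 34. The CD45.2+Kit+ selection sets which cells of the lineage could be counted. The shares also depend on how the clusters were divided: at a finer resolution the class took in a cluster of Mll3/4SI cells and its share in that library became 2.59 times the control's.

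Within the class the protease Mcpt8 stood at 1526 CPM in the control (1470 to 1584), with Mll3SI at 5296 (5141 to 5454), Mll4SI at 1175 and Mll3/4SI at 2019, so that Mll3SI was 3.47-fold above the control (3.31 to 3.64). The median cell showed the same order for Mll3SI, with 1037 CPM against 60.7 in the control, 0 in Mll4SI and 38.03 in Mll3/4SI. Prss34 stood at 940, 1741, 876 and 1422 CPM. Prss34 UMIs came from few cells: in the control 34 of 130 cells held any, while Mll3SI had 22 of 76 such cells, Mll4SI 24 of 94 and Mll3/4SI 13 of 38. In Mll3/4SI 2 cells with 490 and 392 UMIs held 84.2% of the 1047 Prss34 UMIs of the class. Without the 2 cells with the most Prss34 UMIs in each library, the Mll3/4SI log2 ratio for Prss34 was -1.49 in the class and -1.72 over all cells. Within the class the Mcpt8 log2 ratio of Mll3SI was 2.46 in Hashtag1 and 1.48 in Hashtag2 cells, the same direction in both. In Mll4SI the hashtags went opposite ways, at 0.81 and -1.80 for Mcpt8 and 1.27 and -1.45 for Prss34, and in Mll3/4SI Prss34 was at -1.54 and 0.39.

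Cpa3 in the class was at 1801 CPM in the control, with Mll3SI at 1409, Mll4SI at 2510 and Mll3/4SI at 2095, a narrower span than over all cells. Gzmb was at 253, 103, 236 and 159 CPM, and was lower in Mll3SI at 0.405 of the control. The receptor chain Fcer1a was at 259 CPM in the control, with Mll3SI at 289, Mll4SI at 527 and Mll3/4SI at 368, and Ms4a2 at 824, 928, 1061 and 942 CPM. Neither chain of the immunoglobulin E receptor was 2-fold higher in Mll3/4SI within this class, and Fcer1a was 2.04-fold higher in Mll4SI. Cd200r3 was at 37.96, 44.2 and 83.8 CPM in the first 3 libraries and at 2.72 CPM in Mll3/4SI, where only 2 UMIs were counted (0.0715 of the control, 0.0085 to 0.268). Il1rl1 was at 139, 123, 228 and 172 CPM, Hdc at 235, 228, 186 and 235 CPM, and Cyp11a1 at 84.1, 72.8, 22.8 and 84.2 CPM. Cyp11a1 was 2-fold lower in Mll4SI in this class, at 0.271 of the control, and over all cells it was below the control in all 3 libraries, at 0.384 in Mll3/4SI (0.312 to 0.471).

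In this class all 10 genes passed the minimum. In Mll3SI 1 was 2-fold higher (Mcpt8) and 1 lower (Gzmb), beside 10.4% of all genes past 2-fold either way. In Mll4SI 2 were higher (Fcer1a and Cd200r3) and 1 lower (Cyp11a1), beside 10.9%. In Mll3/4SI none was higher and 1 was lower (Cd200r3), beside 14.5%. The median log2 ratios of the 10 genes were 0.06, 0.13 and 0.21, and those of all genes 0.00, 0.00 and -0.02. Gzmb in Mll3SI was not past 2-fold in Hashtag2 cells or as a mean over cells. Fcer1a in Mll4SI was not in Hashtag1 cells, Cd200r3 in Mll4SI was not in Hashtag2 cells, and neither was with 10 CPM added.

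The UMIs of the 10 genes were held by different cells. In the control, basophil/mast-like cells held 97.4% of Prss34, 97.1% of Gzmb, 85.5% of Fcer1a, 80.5% of Cd200r3, 63.8% of Ms4a2, 63.1% of Mcpt8, 48.6% of Cyp11a1 and 40.1% of Cpa3 UMIs. They held 29.5% of Il1rl1 UMIs, of which 49.5% were in erythroid-like cells, and 4.77% of Hdc UMIs, of which 68.8% were in granulocyte-like cells. Prss34 and Gzmb were thus nearly confined to the class in the control library, whereas Hdc was mostly outside it. Much of Cpa3 lay in cells named by stem and multipotent progenitor markers (HSC/MPP-like, 32.2%) and in the unnamed cluster 17 (18.7%), whose leading genes included Prg2, Ccl9 and Cd34.

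In Mll3/4SI most UMIs of several of these genes lay in 3 clusters that were almost absent from the other libraries. These 3 were picked after clustering because Cpa3 was among the 10 leading genes of each. Cluster 26 held 920 Mll3/4SI cells of its 930, cluster 34 held 682 of 688 and cluster 38 held 328 of 329. They were 13.6%, 10.1% and 4.86% of the Mll3/4SI cells, 28.6% together. A cluster made almost wholly of 1 library may be that library and not a cell type. These 3 clusters held 95.5% of the library's Fcer1a UMIs, 93.1% of Cd200r3, 86.7% of Cpa3, 83.7% of Ms4a2, 70.7% of Il1rl1, 66.9% of Mcpt8 and 52.5% of Hdc. They held 39.4% of Cyp11a1, 10.2% of Prss34 and 8.57% of Gzmb UMIs. Without them the Mll3/4SI log2 ratio over the control was 0.22 for Fcer1a, -0.18 for Cpa3 and -0.46 for Ms4a2, and none of the 10 genes remained 2-fold higher. Because the clusters were picked by Cpa3, this shows where the UMIs lay and is no separate test of the excess. Clusters 22, 36, 37 and 39 were also almost wholly of Mll3/4SI cells, but had Cpa3 at only 2.25 to 4.22 CPM and were not left out.

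**Figure D2:**
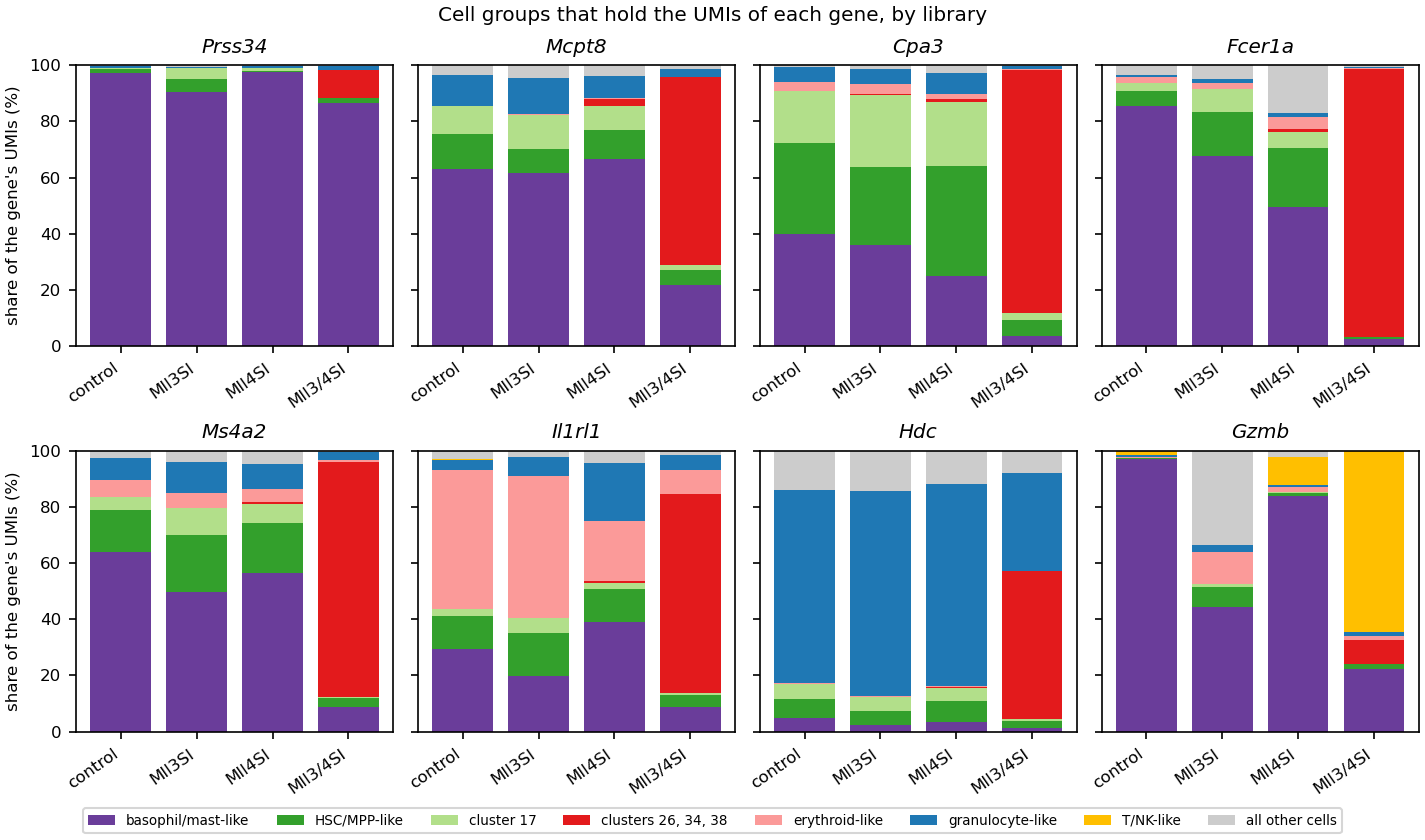
Share of each gene's UMIs (y axis, %) held by each cell group in each library (x axis), for 8 of the 10 genes. HSC/MPP-like and granulocyte-like leave out clusters 34 and 38, which are drawn with cluster 26 in red. In Mll3/4SI the red groups hold 95.5% of Fcer1a and 86.7% of Cpa3 UMIs but 10.2% of Prss34 UMIs.

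The 3 clusters carried different sets of the genes. Cluster 34, with 7 of 12 stem and progenitor markers and 5 of 12 megakaryocyte markers past 2-fold (Pf4, Itga2b, Gp5, Plek and Rap1b), had Cpa3 at 1027, Fcer1a at 419, Ms4a2 at 188 and Il1rl1 at 48.5 CPM, with Mcpt8 at 2.45 and Prss34 at 0.204 CPM. Cluster 26 was unnamed, with 3 of 12 granulocyte markers (Mpo, Prtn3 and Ctsg) and 3 of 12 monocyte markers (Ms4a6c, Ccr2 and Cd68) past 2-fold. Prg2 and Prg3 of the eosinophil list also passed there. It had Cpa3 at 688, Hdc at 214, Mcpt8 at 190, Fcer1a at 184, Ms4a2 at 153 and Prss34 at 5.63 CPM. Cluster 38 had 4 of 12 granulocyte markers (Elane, Mpo, Prtn3 and Ctsg) and 2 of 12 monocyte markers (Ms4a6c and Cd68) past 2-fold. It had Cpa3 at 620, Hdc at 189, Fcer1a at 81.6, Ms4a2 at 64.0, Mcpt8 at 59.9 and Prss34 at 0.379 CPM. The receptor genes and Cpa3 were therefore present in all 3, and among the 3 Mcpt8 and Prss34 were highest in cluster 26. Few cells weighed heavily on Mcpt8: 2 cells with 658 and 576 UMIs held 17.9% of the 6902 Mcpt8 UMIs of Mll3/4SI. Neither was basophil/mast-like, where no cell held more than 409, and only cluster 26, with 3951, had as many as 658 outside that class. Of the 12 basophil/mast markers, 4 passed 2-fold in cluster 26 (Gata2, Ifitm1, Ikzf2 and Csrp3), 5 in cluster 34 (Gata2, Ifitm1, Slc18a2, Ikzf2 and Muc13) and 1 in cluster 38 (Ikzf2). All 12 mature mast cell markers were at 0 in each of the 3 clusters.

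The hashtags divided these clusters unevenly. Cluster 26 was 6.90% of the Hashtag1 cells and 19.4% of the Hashtag2 cells of Mll3/4SI, cluster 34 was 5.74% and 13.9%, and cluster 38 was 2.65% and 6.59%. Over all Mll3/4SI cells Fcer1a stood at 42.2 CPM in Hashtag1 and 113 CPM in Hashtag2 cells, Cpa3 at 198 and 380, Ms4a2 at 32.5 and 75.7, and Mcpt8 at 21.04 and 68.7 CPM. Hashtag2 cells were higher for all 4 genes. What the hashtags marked is not stated in the labels, so the cause of the difference was not tested.

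Outside those clusters the genes also differed between libraries in progenitors. In HSC/MPP-like cells (636 control, 622 Mll3SI, 520 Mll4SI and 260 Mll3/4SI cells, without cluster 34), Cpa3 was at 179 CPM in the control, with Mll3SI at 78.4, Mll4SI at 398 and Mll3/4SI at 320. Mcpt8 there was at 37.5, 54.6, 18.4 and 53.2 CPM and Fcer1a at 1.95, 4.85, 22.8 and 12.02 CPM. In cluster 17 Cpa3 was at 220, 134, 505 and 377 CPM and Mcpt8 at 61.1, 136, 34.7 and 49.99 CPM. Cpa3 was highest and Mcpt8 lowest in Mll4SI in both groups of cells. In cluster 21, an unnamed cluster led by Pf4 with 9 of 12 megakaryocyte markers, Fcer1a was at 6.31, 4.78, 101.5 and 28.1 CPM. In granulocyte-like cells Hdc was at 91.3, 87.2, 50.7 and 72.1 CPM. In erythroid-like cells Il1rl1 was at 72.8, 71.9, 59.9 and 61.9 CPM, the narrowest span of these values. T/NK-like cells, of which there were only 26, 12, 22 and 47, held Gzmb at 36.9, 0, 277 and 759 CPM, and in Mll3/4SI they held 64.2% of all its UMIs.

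The number of Cpa3 UMIs per Mcpt8 UMI removes the number of cells from the comparison of these proteases, but not the mixture of cells in a group. Of the basophil/mast-like subsets described below, A held 1363 Cpa3 and 373 Mcpt8 UMIs and C held 2917 and 4888. In basophil/mast-like cells it was 1.18 in the control, with Mll3SI at 0.266, Mll4SI at 2.14 and Mll3/4SI at 1.04. In HSC/MPP-like cells it was 4.78, 1.43, 21.6 and 6.02, in cluster 17 it was 3.60, 0.980, 14.6 and 7.54, in granulocyte-like cells 0.855, 0.180, 5.43 and 2.20, and in monocyte-like cells 0.0725, 0.0490, 2.63 and 0.596. In each of the 5 groups Mll3SI had the lowest and Mll4SI the highest ratio, although the intervals of Mll3SI and the control overlapped in monocyte-like cells. The groups of a library share its free RNA, whose part was not tested, so the 5 are not separate observations. In Mll3/4SI cluster 34 was at 419, cluster 26 at 3.62 and cluster 38 at 10.3. Other groups with few Mcpt8 UMIs also had high ratios, such as erythroid-like Mll4SI cells at 209 from 1 Mcpt8 UMI. The number of Prss34 UMIs per Mcpt8 UMI in basophil/mast-like cells was 0.616, 0.329, 0.745 and 0.704, again lowest in Mll3SI.

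**Figure D3:**
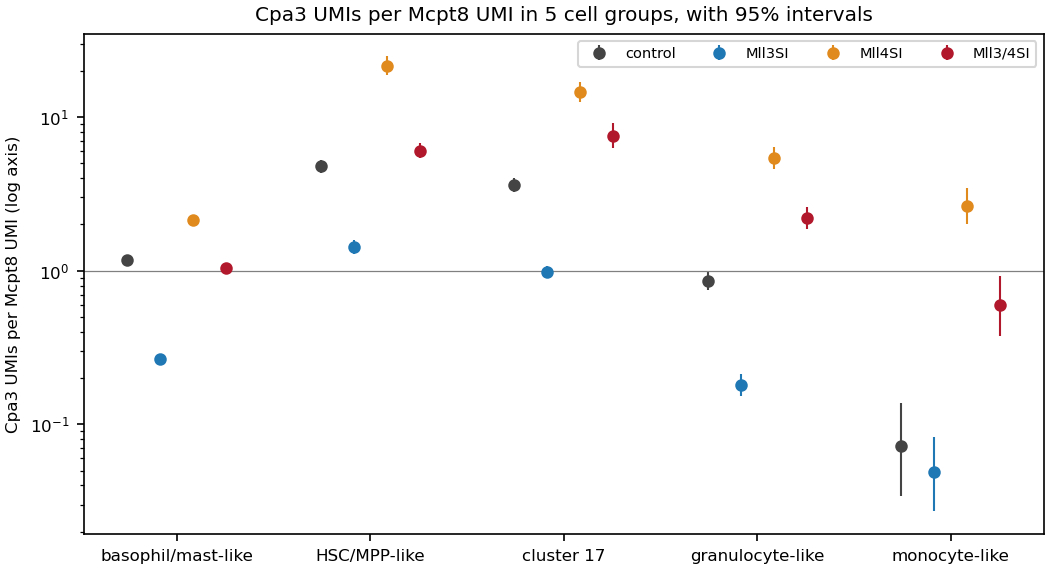
Cpa3 UMIs per Mcpt8 UMI (y axis, log scale) in 5 cell groups (x axis) of the 4 libraries, with 95% intervals for counting error. Mll3SI is lowest and Mll4SI highest in each group, from 0.266 and 2.14 in basophil/mast-like cells to 1.43 and 21.6 in HSC/MPP-like cells.

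Counting the members in each cell uses no clusters. At 3000 UMIs per cell, at least 4 of the 10 genes were detected in 83 of 6613 control cells (1.26%), 72 of 7905 Mll3SI cells (0.911%), 72 of 9960 Mll4SI cells (0.723%) and 177 of 6620 Mll3/4SI cells (2.67%). The share in Mll3SI was 0.726 of the control's (0.525 to 1.002) and that in Mll4SI 0.576 (0.416 to 0.795). Mll3/4SI had 2.13 times the control's share (1.64 to 2.79), an excess much smaller in Hashtag1 than in Hashtag2 cells (values in the last section). Of the cells with at least 4 members, 90.4% in the control, 68.1% in Mll3SI and 84.7% in Mll4SI were basophil/mast-like, against 14.1% in Mll3/4SI. There 84 were in cluster 26, 47 in cluster 34 and 11 in cluster 38, and without these clusters the ratio to the control was 0.594. The excess in Mll3/4SI was at moderate numbers of members: at least 6 were detected in 28, 23, 29 and 23 cells.

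**Figure D4:**
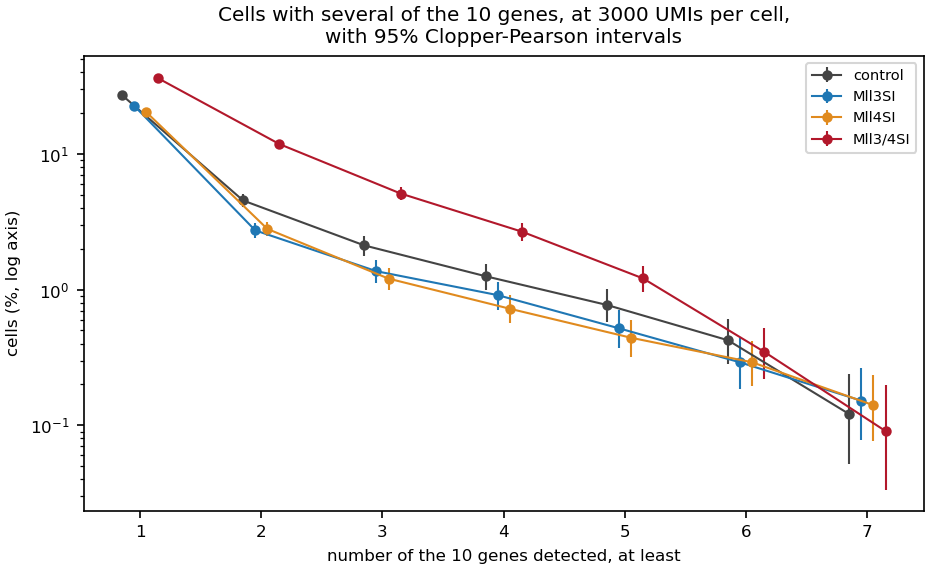
Share of cells (y axis, %, log scale) with at least 1 to 7 of the 10 genes detected (x axis) at 3000 UMIs per cell, with 95% Clopper-Pearson intervals. Mll3/4SI lies above the other libraries up to 4 genes, with 2.67% against 1.26% of control cells at 4 genes, and its interval overlaps the control's from 5 genes on.

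Pairs of genes showed which were detected together. In control basophil/mast-like cells, 24 of 26 cells with Prss34 also held Mcpt8 (92.3%), whereas 24 of 50 cells with Mcpt8 held Prss34 (48.0%). The same nesting was seen in Mll3SI (20 of 20, and 20 of 48), Mll4SI (18 of 20, and 18 of 33) and Mll3/4SI (8 of 8, and 8 of 17). Prss34 was thus found mostly in a subset of the Mcpt8 cells. In the control, 1 of 22 cells with Gzmb held Prss34 (4.55%), beside 25 of 108 without Gzmb (23.1%). Mll4SI had 0 of 20 beside 20 of 72, and Mll3/4SI 1 of 7 beside 7 of 31. In Mll3SI the order was the other way, with 4 of 13 Gzmb cells (30.8%) beside 16 of 63 others (25.4%). Cells with Fcer1a held Ms4a2 in 45 of 51 control cells (88.2%), and Mll3SI had 31 of 33 such cells, Mll4SI 55 of 57 and Mll3/4SI 16 of 17.

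In the Mll3/4SI clusters the receptor genes were often found in the same cells. In cluster 26, 95 of 113 cells with Fcer1a held Ms4a2 (84.1%), beside 42 of 805 cells without Fcer1a (5.22%). In cluster 34, 102 of 323 cells with Fcer1a held Ms4a2 (31.6%), beside 47 of 358 without it (13.1%). Cells with Cpa3 held Mcpt8 in 42 of 357 cluster 26 cells (11.8%), beside 23 of 561 without Cpa3 (4.10%). In cluster 38 it was 6 of 113 (5.31%) beside 5 of 214 (2.34%). In cluster 34 it was 5 of 421 (1.19%) beside 1 of 260 (0.385%), against 50 of 111 control basophil/mast-like cells with Cpa3 (45.0%). Cells of 1 library share their source, and these shares describe cells and not replicates.

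**Figure D5:**
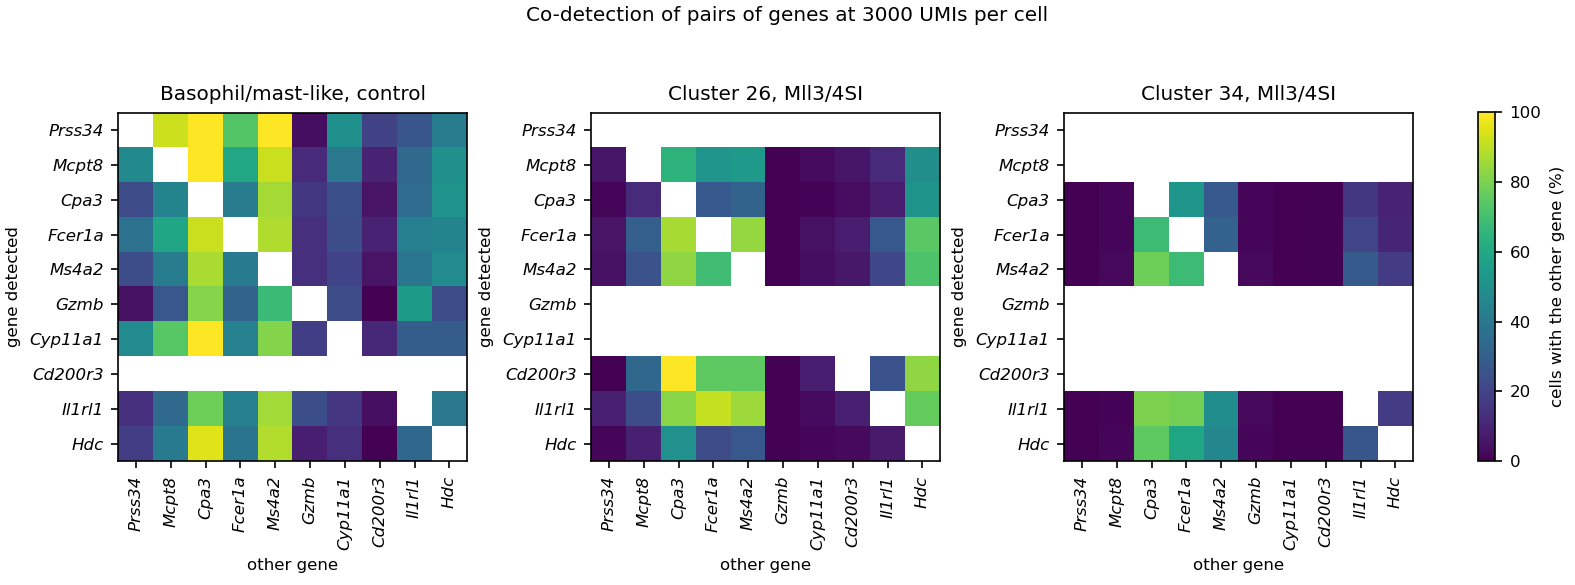
Of the cells with a UMI of the gene in the row, the share (colour, %) that also held a UMI of the gene in the column, at 3000 UMIs per cell, in control basophil/mast-like cells and in the Mll3/4SI cells of clusters 26 and 34. Rows with fewer than 10 cells and the diagonal are blank. Ms4a2 was found in 88.2%, 84.1% and 31.6% of the Fcer1a cells, and Mcpt8 in 45.0%, 11.8% and 1.19% of the Cpa3 cells.

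A separate sub-clustering, also without the 10 genes, divided a cluster of 1127 cells that a coarser clustering had named erythroid-like. Of its parts, 4 were named basophil/mast-like by their markers and are described here as subsets. Their 372 cells are not the same set as the 338 cells of the class above. Subset A, with 132 cells led by Apoe and Ms4a2, had Mcpt8 at 234 and Prss34 at 30.1 CPM. Subset B, with 78 cells, had Mcpt8 at 2577, Prss34 at 1515 and the division gene Mki67 at 262 CPM. Subset C, with 107 cells, had the highest Mcpt8 (3921 CPM), Prss34 (1939), Ms4a2 (1355) and Fcer1a (495), with Mki67 at 21.7 CPM. Subset D, with 55 cells, had Gzmb at 1577, Cpa3 at 2797, Kit at 740 and the mast cell chymase Cma1 at 264 CPM, with Prss34 at 1.84 and Mcpt8 at 389 CPM. Gzmb was thus highest in subset D and Prss34 in subset C. The control gave 59, 24, 40 and 22 cells to A, B, C and D, Mll3SI 33, 23, 27 and 11, Mll4SI 29, 19, 31 and 15, and Mll3/4SI 11, 12, 9 and 7, so every subset was present in every library. In subset A Mcpt8 was at 90.9 CPM in the control, with Mll3SI at 705, Mll4SI at 141 and Mll3/4SI at 176. In subset B it was at 2303 CPM in the control and 4710 in Mll3SI, and in subset C at 2255 and 8806. Subset D went the other way, with Mcpt8 at 642 CPM in the control and 465 in Mll3SI.

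Surface antibodies are a readout the genes do not use. Values are medians over cells of the log2 antibody count centred on the cell's own mean. In cells with at least 4 members CD48 was at 5.70 in the control, with Mll3SI at 5.43, Mll4SI at 5.81 and Mll3/4SI at 5.96, against 3.84, 3.89, 3.01 and 3.98 in the other cells. The myeloid integrin CD11b was at -0.66, -0.86, -0.71 and -1.24, against 3.40, 2.55, 3.91 and 3.47. Kit protein (CD117) was at 2.77, 2.36, 3.12 and 3.08, against 2.06, 1.72, 2.12 and 1.85. Higher CD48 and lower CD11b than in the other cells were therefore shared by these cells in all 4 libraries. Granulocyte-like cells were 51.0% to 75.9% of each library, so the comparison is mostly with them and does not set these cells apart from other progenitors. The integrin CD41 was at -0.11 in the control, with Mll3SI at -0.99, Mll4SI at 1.41 and Mll3/4SI at 2.37, against -2.72, -2.99, -2.88 and -1.58 in other cells. CD16/32 was at 3.66 and 3.33 in the control and Mll3SI and at 2.16 and 2.13 in Mll4SI and Mll3/4SI, the same division as the sex-linked transcripts. Cells with at least 4 members were 90.4% basophil/mast-like in the control and 14.1% in Mll3/4SI, so antibody values of these 2 libraries come from different mixtures of cells.

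Other genes of the pathway were taken from 6 lists and read in basophil/mast-like cells. The counts in each list stand beside the shares of all genes past 2-fold in this class, 10.4%, 10.9% and 14.5% in the order Mll3SI, Mll4SI, Mll3/4SI. Of 12 genes of immunoglobulin E receptor signalling, none was 2-fold higher or lower in any library. Fcer1g, the receptor's signalling chain, stood at 468 CPM in the control, with Mll3SI at 525, Mll4SI at 469 and Mll3/4SI at 558. Of 12 transcription factors, none was higher and 3, 2 and 1 were lower in Mll3SI, Mll4SI and Mll3/4SI. Mitf, a mast cell factor, was at 44.5, 19.1, 53.7 and 35.3 CPM, and Cebpb at 168, 224, 76.5 and 124 CPM. Of 10 cytokine receptors, 1 was lower in Mll3SI, 1 higher in Mll4SI and 1 lower in Mll3/4SI, the last being Il1rap, the partner chain of Il1rl1, at 29.8, 22.7, 42.3 and 12.2 CPM. Of 6 lipid mediator enzymes, 1 was lower in Mll3SI, 1 higher in Mll4SI, and 1 higher and 1 lower in Mll3/4SI.

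Among 8 cytokines and chemokines, 7 of them at 1 CPM or more, 1 was lower in Mll3SI, 1 was higher and 1 lower in Mll4SI, and 1 was higher in Mll3/4SI. Il4, the type 2 cytokine that basophils make, was at 34.2, 15.5, 8.14 and 17.7 CPM, from 63, 13, 10 and 13 UMIs. Ccl4 was at 6.51, 5.97, 26.9 and 8.15 CPM. Il4 was thus highest in the control in this class, whereas Cyp11a1 was highest in the control over all cells but not in this class. Of 14 other granule genes, 9 were at 1 CPM or more, with 2 higher and 1 lower in Mll3SI, 2 higher in Mll4SI and 1 lower in Mll3/4SI. Mcpt2, a mucosal mast cell protease, was counted 308 times in 38 Mll3SI cells and not at all in the other 3 libraries. In basophil/mast-like cells it had 286 UMIs in 24 of 76 Mll3SI cells (341 CPM), while 0 UMIs in the control, Mll4SI and Mll3/4SI allow up to 1.63, 2.44 and 4.07 CPM.

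The Mcpt2 cells of Mll3SI carried both hashtags, 16 cells with Hashtag1 and 22 with Hashtag2. Of the 24 in the class, 17 also held Mcpt8, 8 held Prss34 and 10 held Gzmb. Mcpt2 lies in the same protease family as Mcpt8, and reads between such copies may be divided by the counting. Cma1 was at 39.0 CPM in the control, with Mll3SI at 1.19, Mll4SI at 57.8 and Mll3/4SI at 0. In Mll4SI 69 of its 71 UMIs came from 1 cell, which also held 24 Tpsb2, 29 Mcpt4 and 134 Cpa3 UMIs and no Mcpt8 or Prss34. In the control the cell with the most Cma1 held 36 UMIs of 74. Cma1 therefore rested on a few cells.

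The genes most alike to each member were ranked by Pearson correlation of log2(CPM + 10) over 44 sums of at least 20 cells, each a cell group in a library. These sums share libraries and cell groups, so the values are descriptions. Prss34 was most like F830045P16Rik (0.99), B630019A10Rik (0.98) and Csf1, the macrophage growth factor, and Mcpt8 was most like Csf1 (0.94), Edem3 and Gm11697 (0.92 each). Cpa3 was most like Slc7a8 (0.93), Gm11697 (0.93) and Mc5r (0.90). Fcer1a was most like Il6 (0.92), Cdh1 and Gm11697 (0.88 each), and Ms4a2 most like Gm11697 (0.96), Il6 (0.94) and Abca8b (0.93). Il6, a cytokine, was at 40.3 CPM in cluster 34 and at 0.992, 0.664, 1.70 and 6.94 CPM over all cells. Gzmb was most like Lag3 (0.87), Rab19 (0.86) and Padi2 (0.84). Cyp11a1 was most like Il4 (0.97), B630019A10Rik (0.97) and F830045P16Rik (0.96). Il1rl1 was most like Slc45a3 (0.99), Csrp3 and Gm9895 (0.95 each), Hdc most like Csf2rb (0.94), Parvg (0.92) and Rab44 (0.91), and Cd200r3 most like Tmprss7 (0.94), 2210010C04Rik and Nlgn1 (0.91 each). Among the members themselves the correlation was 0.96 for Prss34 and Cyp11a1, 0.92 for Fcer1a and Ms4a2, 0.91 for Cpa3 and Ms4a2, 0.90 for Prss34 and Mcpt8, and 0.07 for Gzmb and Hdc.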

How the data were processed

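The 10 genes, the gene lists and the markers were chosen with earlier results of these data known. The authors deposited counts of UMIs per gene or antibody and cell barcode from 10x 3′ v3.1 libraries, which the file headers and the submitters' processing notes credit to Cell Ranger 7.1.0, and the notes to build mm10. The files list 32285 genes and 15 antibodies, 2 of them hashtags. Cells with at least 500 genes, 1000 UMIs and at most 10% mitochondrial UMIs were kept, and simulated-doublet scores removed 409, 594, 1001 and 411 cells (control, Mll3SI, Mll4SI, Mll3/4SI), 0.8% per 1000 cells. Cells above both hashtag thresholds (110 and 290 UMIs), 157, 385, 573 and 177, stayed in except in an alternative.

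Computed from the counts were CPM of summed UMIs, log2 ratios of CPM + 1, and shares of cells after thinning to 3000 UMIs. Folds with intervals have no CPM added. Joint clustering used 2000 variable genes, 30 principal components, 15 neighbours and Leiden resolution 2. The planned resolution of 1 named no basophil/mast cluster, its cells being merged with erythroid-like cells, and resolution 2 was taken after that was seen. A cluster was named where at least 3 of 12 markers passed 2-fold (10 CPM added), 2 more than the next list, and no other list had more among its top 10 genes. Named genes were the 10 members, listed genes of at least 10 CPM past 2-fold in basophil/mast-like cells, and the 3 genes most alike to each member. Cluster 21 and the members of the marker lists were named after their values were seen.

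The 2-fold call was tested on simulated data with the control and Mll3/4SI totals over 12261 genes: it recovered 91.5% of all 200 genes given known changes, 100% of the 139 among them of at least 10 CPM, and called 0% of unchanged genes. The simulated counts were Poisson draws at the totals of all kept cells, without spread between cells or libraries. They check the arithmetic of the call only, and do not cover the smaller basophil/mast-like class or genes held by few cells. Python 3.11.15, numpy 2.4.6, scipy 1.17.1, pandas 2.3.3, scanpy 1.11.5, scikit-learn 1.9.0 and matplotlib 3.10.9 were used. Gene positions came from GENCODE M21 (GRCm38), and promoters from RefSeq (GRCm38.p6), by symbol.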

Additional observations from a re-analysis of the deposited data

How the results depend on the processing

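No paired analysis was possible because each group is 1 library. Over all kept cells, 7 of 30 ratios passed 2-fold, and all 7 kept their direction under every alternative but 1: without clusters 26, 34 and 38 (added after seeing the data), Cpa3 was at -0.18 and Ms4a2 at -0.46 in Mll3/4SI, the count higher was 0 and the ratio of cells with at least 4 members 0.594. That ratio was 1.57 for at least 5 members, 1.16 in Hashtag1 and 3.27 in Hashtag2 cells. Counts over all kept cells changed as follows. Median-of-ratios scaling gave 1 higher in Mll4SI. With 10 CPM added, 1 was lower in Mll3SI and 0 in Mll4SI, and a minimum of 10 CPM gave 1 and 1. Hashtag1 cells gave 1 higher in Mll3SI, 1 lower in Mll4SI, and 2 lower and 2 higher in Mll3/4SI, and Hashtag2 cells 1 higher and 3 lower in Mll4SI and 1 lower in Mll3/4SI. The mean over cells and every deposited barcode each gave 3 lower in Mll3SI. Removing cells of both hashtags, or the 2 cells with the most UMIs of each gene, gave 1 lower in Mll3/4SI. In basophil/mast-like cells 6 of 30 ratios passed, and the count higher in Mll4SI was 0 with 10 CPM added. The mean over cells gave 0 lower and 2 higher in Mll3SI. Hashtag1 cells gave 3 higher in Mll3SI and 2 lower in Mll3/4SI, Hashtag2 cells 3 lower and 1 higher in Mll4SI with Cd200r3 at -0.54, and leaving out the 2 top cells 3 lower in Mll3/4SI. Leiden resolution 3 gave 7 lower in Mll3/4SI and a class share 2.59 times the control's, from 162, 123, 109 and 420 cells, since it added an Mll3/4SI cluster. Resolution 1 gave no class. Where no construction shows it, the cause was not tested. Cd200r3 in Mll3/4SI rests on 2 UMIs in the class, where the median depth was 17402.5 UMIs per cell, beside 13239 in the control.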
